A study of Mus musculus with 2 samples.

Results

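The Ifit genes (interferon-induced proteins with tetratricopeptide repeats) were followed as a family of 4 members, Ifit1, Ifit2, Ifit3 and Ifit3b, out of 32432 genes counted in leukocytes from mouse melanomas. The members were looked up by gene symbol, and all 4 were present in the gene table (ENSMUSG00000034459, ENSMUSG00000045932, ENSMUSG00000074896 and ENSMUSG00000062488). The 8 samples were hashtag-labelled sets of live CD45+ cells sorted from B16-F10 melanomas, a transplantable mouse skin tumour line, of which 1000 cells had been placed intradermally in both legs. All mice were male, 8 to 12 weeks old, and carried 1 R26CreERT2 allele, a tamoxifen-activated Cre expressed from the ubiquitous Rosa26 locus. The 4 iKO samples had the genotype Trex1 fl/fl-R26CreERT2-ki/wt. The 4 control samples had the genotype Trex1 wt/fl-R26CreERT2-ki/wt, so the control also carried Cre and a floxed allele and could lose 1 of its Trex1 copies. Both genotypes received tamoxifen (1 mg, 3 daily injections beginning on day 5), and the harvest was on day 14. Recombination was not limited to leukocytes, and the injected tumour cells did not carry the Cre.

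Trex1 is an exonuclease that degrades cytosolic DNA. When such DNA accumulates it is sensed by cGAS, which signals through STING, TBK1 and IRF3 to type I interferon. Interferon bound to its receptor activates the kinases JAK1 and TYK2, and transcription factors that include STAT2 and IRF9 then bind the interferon-stimulated response element in the promoters of its target genes. Ifit genes are among the most strongly interferon-induced of these targets, and some can also be induced directly by IRF3. IFIT1 binds the 5′ end of viral RNA that lacks cellular cap methylation, IFIT3 associates with other IFIT proteins, IFIT2 limits the replication of several viruses, and Ifit3b is a close mouse copy of Ifit3.

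The promoter stretches of Ifit3, Ifit3b and Ifit1 are shown because the 3 genes share a pair of response-element-like matches, while the windows of Ifit2 hold none. The stretches run from 200 to 51 bases before the RefSeq start site, all on the plus strand of chromosome 19 in build GRCm38.p6 (chr19:34583329-34583478 for Ifit3, chr19:34607757-34607906 for Ifit3b and chr19:34640689-34640838 for Ifit1). Capitals mark matches to GAAANNGAAA on either strand, the core of the response element. Here every match lies on the opposite strand, so the stretches show its reverse complement.
Ifit3: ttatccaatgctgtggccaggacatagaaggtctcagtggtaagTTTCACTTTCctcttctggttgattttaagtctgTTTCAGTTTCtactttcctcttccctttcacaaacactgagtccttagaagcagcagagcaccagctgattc
Ifit3b: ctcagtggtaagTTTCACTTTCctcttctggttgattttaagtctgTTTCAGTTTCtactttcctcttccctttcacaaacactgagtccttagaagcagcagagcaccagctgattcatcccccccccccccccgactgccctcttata
Ifit1: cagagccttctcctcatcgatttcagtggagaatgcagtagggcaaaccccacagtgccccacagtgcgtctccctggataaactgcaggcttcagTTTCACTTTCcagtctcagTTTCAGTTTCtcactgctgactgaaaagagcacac
Each of the 3 windows, taken from 250 bases before to 50 after the start, held 2 matches, and the 2 matched stretches read TTTCACTTTC and TTTCAGTTTC in all 3 genes. In Ifit3 they began 156 and 122 bases before the start, in Ifit3b 188 and 154, and in Ifit1 104 and 85. Of 32851 promoter windows of the same length, 3.44% held at least 1 match. The 2 windows listed for Ifit2 held no match, which says only that these letters are not in those windows: Ifit2 rose over all cells and in monocytes and macrophages, neutrophils and CD8 T cells, as Ifit1 and Ifit3 did. The Ifit3 and Ifit3b windows were identical at 76.2% of aligned positions, against 48.7 to 52.5% for the other pairs of members. The 2 matches of Ifit1 are also the 2 matches of the window of Ifit1bl2, a relative that starts on the opposite strand, since the windows overlap.

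The close likeness of Ifit3 and Ifit3b bears on the counts. Their longest GENCODE transcripts were identical at 81.2% of aligned positions, and 47.0% of 60-base windows of the Ifit3 transcript also occurred in Ifit3b. In the last 300 bases, where 3′ end reads fall, no 60-base window was shared in either direction. No member overlapped another annotated gene. Reads further from the 3′ end could still be split or lost between Ifit3 and Ifit3b, so their counts carry that uncertainty.

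The 8 matrices held 23731 barcodes, of which 22052 cells were kept, 1294 to 5722 per iKO sample and 1697 to 2710 per control sample. Median depth was 12983 to 14490.5 unique molecular identifiers (UMIs, one per captured RNA molecule) per cell in the iKO samples and 6405 to 11845.5 in the controls. Since each genotype was 1 pool, an effect of genotype and one of pool cannot be told apart here. The labels do not say whether each hashtagged sample is 1 mouse, so p-values measure the spread between these samples. The deleted gene could not be used to check the labels, because Trex1 had 2 UMIs in all kept cells together, both in control sample 2. Cell types were gated on marker genes: a cell needed a minimum number of the markers of exactly 1 type, for example 6 of 11 for monocytes and macrophages, which were taken as 1 type. This gave 7705 monocyte/macrophage, 1395 neutrophil, 4948 CD8 T, 604 CD4 T, 491 regulatory T (Treg), 889 B, 469 mature dendritic (mature DC), 247 type 2 dendritic (cDC2), 162 type 1 dendritic (cDC1), 191 NK and 106 plasmacytoid dendritic (pDC) cells. The remaining cells were 1188 T cells that could not be split, 1334 that met more than 1 panel and 2323 that met none. Gate minima were set after the marker counts were seen, and 1349 cells sat exactly at the macrophage minimum with 1292 just below it.

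Over all kept cells, all 4 members rose in the iKO samples. Levels are given in CPM, the UMIs of a gene per 1000000 UMIs of the summed cells of a sample. Ifit3 stood at 241, 260, 130 and 132 CPM in iKO samples 1 to 4, and at 47.8, 52.9, 45.7 and 14.5 CPM in the 4 controls, given in the same order here and throughout. The genotypes did not overlap for any of the 4 members, as for 12.2% of genes with a mean of at least 10 CPM, and the lowest value was that of control sample 4. Ifit2 was 238, 231, 94.4 and 107 CPM in the iKO samples and 43.6, 45.3, 38.5 and 11.9 CPM in the controls. Ifit1 ranged from 98.4 to 177 CPM against 15.8 to 50.4 CPM, and Ifit3b from 25.9 to 53.7 CPM against 3.75 to 15.3 CPM. The log2 fold changes were 1.89 ± 0.33 (SE) for Ifit1, 2.29 ± 0.46 for Ifit2, 2.27 ± 0.40 for Ifit3 and 2.10 ± 0.40 for Ifit3b. Adjusted p-values from edgeR's quasi-likelihood test over 13459 genes were 0.0253, 0.0423, 0.0272 and 0.0363. The 4 of 4 members called compare with 2.53% of all genes tested, and their median log2 fold change of 2.18 with -0.01 over all genes. Without iKO sample 1, iKO sample 2, control sample 1 or control sample 3 no member passed, and without control sample 2 only Ifit3b did, with fold changes of 1.66 to 2.49 on the log2 scale over all runs that left out 1 sample. A sum over all cells mixes level per cell with the make-up of the sample, in which monocytes and macrophages made up 30.6 to 47.5% of iKO and 19.6 to 49.0% of control cells.

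**Figure D1:**
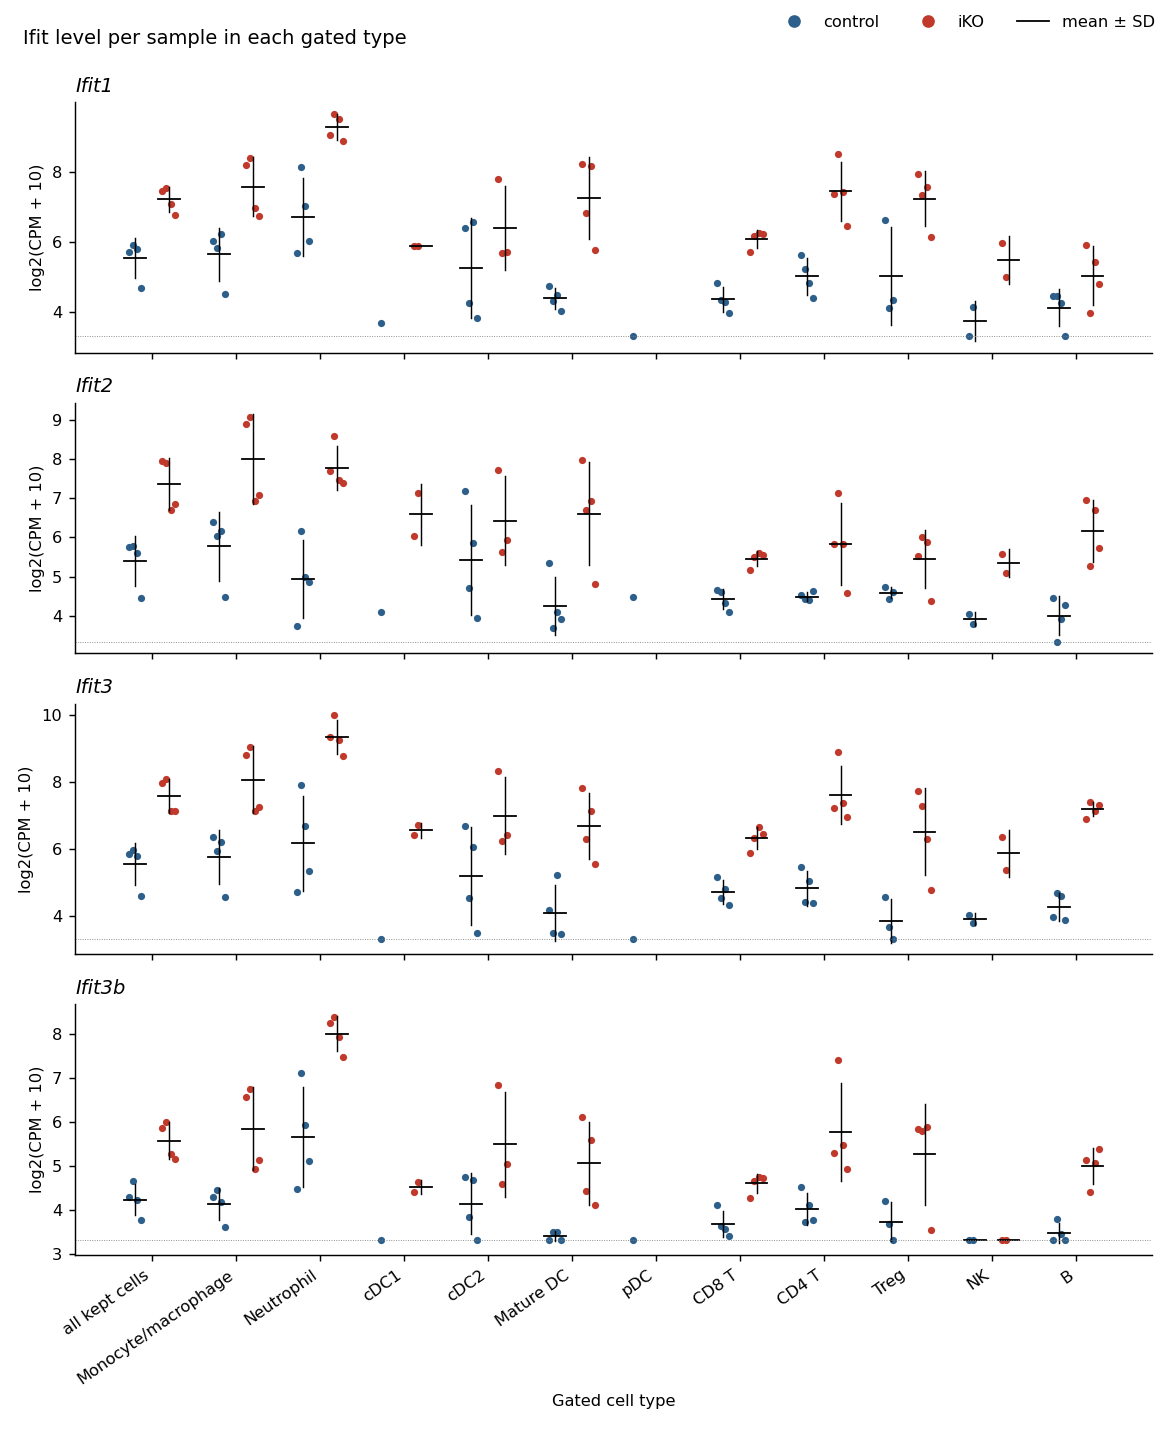
Level of each Ifit member, as log2(CPM + 10), in every gated type with at least 20 cells in a sample. Each point is 1 sample (blue control, red iKO), black bars are mean ± SD, and the dotted line is a level of 0. Neutrophils hold the highest iKO points for Ifit1, Ifit3 and Ifit3b, and iKO points lie above all control points in monocytes and macrophages, neutrophils and CD8 T cells.

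Monocytes and macrophages, the largest gated type, carried all 4 members at higher levels in iKO. Ifit2 was 471, 528, 112 and 125 CPM in iKO and 74.9, 56.0, 61.9 and 12.1 CPM in controls. Ifit3 was 439, 520, 130 and 144 CPM in the iKO samples and 72.2, 50.9, 63.4 and 13.9 CPM in the controls. Ifit1 was 283, 325, 116 and 96.9 CPM against 54.4, 46.6, 64.1 and 12.8 CPM. Ifit3b was 84.8, 97.9, 20.8 and 25.2 CPM against 9.79, 11.9, 8.24 and 2.38 CPM. Each genotype was itself uneven: for every member iKO samples 1 and 2 were the highest of the 8, and control sample 4 was the lowest. The genotypes did not overlap for any of the 4 members, as was the case for 18% of genes with a mean of at least 10 CPM in this type. The log2 fold changes were 2.24 ± 0.55 for Ifit1, 2.63 ± 0.68 for Ifit2, 2.65 ± 0.61 for Ifit3 and 2.95 ± 0.66 for Ifit3b. Their edgeR adjusted p-values were 0.0345, 0.0401, 0.0292 and 0.0266, where 10.2% of 11628 genes were called. All 4 calls were lost when any of iKO samples 1 and 2 and control samples 2, 3 and 4 was dropped, with adjusted p-values up to 0.105. Over all 8 runs that left out 1 sample the fold changes were 1.90 to 3.23 on the log2 scale. Under a strict gate that dropped every cell with a UMI of another lineage's first marker, Ifit1, Ifit2 and Ifit3 had adjusted p-values of 0.0700, 0.0739 and 0.0620.

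The same uneven pattern was seen in other interferon-induced genes of these cells. Irf7, the transcription factor that amplifies type I interferon, was at 1099, 1180, 481 and 569 CPM in monocytes and macrophages of iKO samples 1 to 4 and at 150, 108, 131 and 52.6 CPM in the controls. Isg15, a ubiquitin-like modifier, was at 2754, 3028, 874 and 924 CPM against 488, 290, 349 and 204 CPM. In both genes iKO samples 1 and 2 were again the highest and control sample 4 the lowest. Summed markers of T cells in this gate were 64.7 to 78.5 CPM in iKO and 43.7 to 54.1 CPM in control samples, with none of the 6 at 0, and the 8 neutrophil markers were 208 to 222 CPM against 317 to 631 CPM. Their part in the Ifit difference was not tested.

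Neutrophils had the highest level of Ifit1, Ifit3 and Ifit3b of any type in all 4 iKO samples and in 3 of 4 controls, among the types with at least 20 cells. Ifit3 was 636, 1002, 599 and 422 CPM in iKO and 16.4, 227, 93.9 and 30.8 CPM in controls. Ifit1 was 525, 797, 718 and 465 CPM against 41.1, 271, 120 and 54.8 CPM. Control sample 2 was the highest control for both genes, and the genotypes did not overlap for any of the 4 members, as for 3.06% of genes with a mean of at least 10 CPM. Ifit3b was 295, 322, 234 and 167 CPM against 12.3, 129, 50.9 and 24.7 CPM. Ifit2 was 197, 380, 167 and 157 CPM against 3.29, 62.3, 21.5 and 19.1 CPM, and so was the one member for which neutrophils were the top type in only 2 of 4 iKO samples. The other 2 were led by monocytes and macrophages. All 4 members rose, with log2 fold changes of 2.59 ± 0.47 for Ifit1, 3.32 ± 0.53 for Ifit2, 3.07 ± 0.60 for Ifit3 and 2.45 ± 0.51 for Ifit3b. The edgeR adjusted p-values were 0.00943, 0.00442, 0.0150 and 0.0210, where 2.49% of 5510 genes were called. The calls of Ifit1 and Ifit2 held without any 1 sample. Ifit3 lost its call without control sample 3 or 4 (0.0567 and 0.0513), and Ifit3b without iKO sample 1 or control sample 3 or 4 (0.0585 to 0.0825). Neutrophils were fewer in iKO, 41 to 132 cells per sample against 216 to 390. Macrophage markers in this gate summed to 2349 to 3380 CPM in iKO and 1610 to 2343 CPM in control samples, against 13091 or more in the macrophage gate itself, and their part in the difference was not tested.

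CD8 T cells had lower levels but little spread between the iKO samples. Ifit1 was 42.2, 61.7, 65.7 and 64.1 CPM in iKO and 18.3, 10.2, 9.60 and 5.74 CPM in controls. Ifit3 was 49.2, 70.7, 90.3 and 77.4 CPM against 25.7, 13.4, 18.3 and 10.05 CPM. Ifit2 was 26.2, 35.3, 38.7 and 36.8 CPM against 15.4, 14.2, 10.05 and 7.18 CPM. Here iKO sample 1 was the lowest of its group for all 4 members, unlike in monocytes and macrophages. The genotypes did not overlap for any member, as for 6.31% of genes with a mean of at least 10 CPM. The log2 fold changes were 2.26 ± 0.27 for Ifit1, 1.45 ± 0.20 for Ifit2 and 1.98 ± 0.26 for Ifit3. The edgeR adjusted p-values were 0.00180, 0.00446 and 0.00306, where 2.74% of 9483 genes were called, and all 3 calls held without any 1 sample. Ifit3b was 9.53 to 17.0 CPM in iKO and 0.72 to 7.29 CPM in control samples, a log2 difference of 1.82 ± 0.42 that did not pass (edgeR adjusted p 0.0517). It passed with sample number as a block (0.0281), with DESeq2 (0.00142) and without control sample 1 (0.00634). Control sample 1 was the only control to reach the count level that the filter on low counts asks for. Ifit3b thus entered the test through its iKO samples, and these passes are given as a description. The 11 macrophage markers summed to 231 to 400 CPM in iKO and 315 to 389 CPM in control CD8 T cells, with none at 0. Their part in the Ifit difference was not tested.

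**Figure D2:**
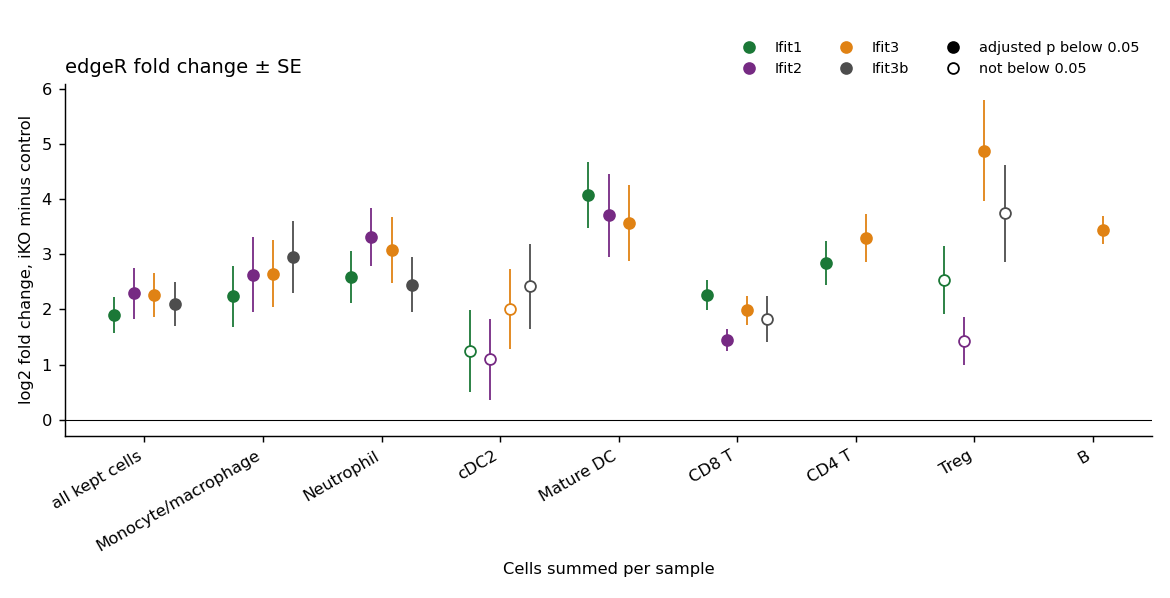
log2 fold change (iKO minus control) from edgeR with its standard error, for each member that passed the filter on low counts, over all kept cells and in 8 gated types. Filled points have an adjusted p below 0.05. All points lie above 0; filled points are 4 of 4 over all cells and in monocytes and macrophages and neutrophils, and 0 of 4 in cDC2.

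CD4 T cells and B cells showed the same direction from fewer counts, and here the members that could be tested entered the test through their iKO samples, so the tests are given as a description. In CD4 T cells Ifit3 was 140, 459, 155 and 114 CPM in iKO samples 1 to 4 and 34.5, 11.3, 23.2 and 10.98 CPM in the controls, from 40 to 200 and 3 to 24 UMIs. Ifit1 was 155, 358, 163 and 77.7 CPM against 38.8, 27.4, 18.3 and 10.98 CPM. The log2 differences were 3.30 ± 0.44 and 2.85 ± 0.40, with edgeR adjusted p-values of 0.000349 and 0.000610 and 2.68% of 5340 genes called. Both calls held without any 1 sample. Of the 4 control samples, 2 reached the count level that the filter asks for, for Ifit1 and for Ifit3. iKO sample 2 stood far above the other iKO samples in this type. The genotypes did not overlap for 3 of the 4 members, Ifit2 being the exception, as for 3.99% of genes with a mean of at least 10 CPM. Ifit2 and Ifit3b did not pass the filter on low counts. In B cells Ifit3 alone passed that filter. It was 110, 159, 131 and 148 CPM in iKO samples 1 to 4 and 5.91, 16.0, 14.1 and 4.71 CPM in the controls. The difference of 3.44 ± 0.26 on the log2 scale had an edgeR adjusted p of 4.47e-09, where 3.52% of 3070 genes were called, and it held without any 1 sample. The counts behind it were 26, 28, 28 and 75 UMIs in the iKO samples and 1, 4, 28 and 1 in the controls, and none of the 4 control samples reached the level the filter asks for, so the gene passed the filter through its iKO samples. Ifit2 in B cells was 28.5 to 114 CPM in iKO and 0 to 11.8 CPM in control samples, and Ifit1 overlapped between the genotypes at 5.69 to 50.6 and 0 to 11.97 CPM. The other 3 members did not overlap, as for 2.79% of genes with a mean of at least 10 CPM. Macrophage markers were 380 to 443 CPM in iKO and 615 to 809 CPM in control B cells, and their part in the Ifit difference was not tested.

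Treg cells were compared as 4 iKO against 3 control samples, since control sample 4 had 16 cells. Ifit3 was 203, 145, 68.5 and 17.6 CPM in iKO samples 1 to 4 and 13.9, 2.90 and 0 CPM in control samples 1 to 3. It was the 1 member of 4 without overlap, as for 7.29% of genes with a mean of at least 10 CPM. The control values are 5, 2 and 0 UMIs, so Ifit3 entered the test through its iKO samples, and the fitted log2 difference of 4.88 ± 0.92 (edgeR adjusted p 0.0282, 1.07% of 6820 genes called) is a description whose size depends on counts near 0. That call was lost when iKO sample 1 or 2, or else control sample 2 or 3, was dropped (0.0699 to 0.182), and with DESeq2 (0.0533). Ifit1, Ifit2 and Ifit3b differed by 2.54 ± 0.62, 1.42 ± 0.43 and 3.75 ± 0.88 on the log2 scale without passing (edgeR adjusted p 0.0708, 0.150 and 0.0596). All 3 passed with sample number as a block (edgeR adjusted p 0.0279, 0.0463 and 0.0171). Of the 3 control samples, 1 reached the level the filter asks for, for Ifit1 and for Ifit2, and 0 for Ifit3b. These members thus also entered the test through their iKO samples, and the block values are a description. The pairing behind the block does not come from the labels. iKO sample 4 was the lowest iKO sample for all 4 members, and for Ifit3b it stood at 1.76 CPM against 46.0 to 48.9 CPM in the other 3.

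Among dendritic cells, mature DC had higher levels in iKO from few control counts, and no member passed the edgeR test in cDC2. In mature DC, the migratory CCR7-positive state, Ifit1 was 289, 104, 276 and 44.9 CPM in iKO samples 1 to 4 and 16.6, 9.65, 12.5 and 6.13 CPM in the controls. The control samples held 6, 7, 9 and 6 UMIs of Ifit1, 11, 2, 5 and 5 of Ifit2 and 3, 1, 20 and 1 of Ifit3, against 30 or more of each in every iKO sample. For each of the 3 genes 1 control sample reached the level the filter asks for, so they entered the test through the iKO samples and the test is given as a description. The log2 differences were 4.08 ± 0.61, 3.71 ± 0.75 and 3.57 ± 0.69 (edgeR adjusted p 0.00890, 0.0418 and 0.0321), where 0.547% of 5850 genes were called. Ifit3b did not pass the filter, with 2 UMIs in all control cells. Ifit2 overlapped between the genotypes, since control sample 1 at 30.4 CPM lay above iKO sample 4 at 18.2 CPM. The other 3 did not overlap, as for 3.04% of genes with a mean of at least 10 CPM. The call of Ifit2 was lost on leaving out any sample but iKO samples 3 and 4, that of Ifit3 on dropping iKO sample 1 or any control but the third, and that of Ifit1 without control sample 2 or 4 (adjusted p up to 0.175). In cDC2, compared as 3 against 4 because iKO sample 1 had 19 cells, Ifit3 was 307, 65.1 and 76.3 CPM in iKO samples 2 to 4 and 93.3, 13.3, 56.6 and 1.35 CPM in the controls. The groups overlapped for all 4 members, where 4.93% of genes with a mean of at least 10 CPM had every iKO sample above every control. The log2 differences were 1.09 to 2.42 (edgeR adjusted p 0.292 to 0.637), and 0.362% of 6082 genes were called in this type, so the test does not show that cDC2 were without a difference.

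cDC1, NK and pDC had too few cells per sample to test and are given as UMIs of all samples of a genotype together. In cDC1, Ifit1 had 106 UMIs in 89 iKO cells and 3 in 73 control cells, and Ifit3 had 152 and 3. The iKO counts came from 3 of the 4 samples: Ifit1 had 39, 40, 26 and 1 UMIs in iKO samples 1 to 4, Ifit3 59, 77, 16 and 0, and Ifit2 44, 106, 27 and 2. iKO sample 4, with 16 cells, was thus at the level of the controls, which had 0 to 2 UMIs of Ifit1, 0 to 2 of Ifit3 and 0 to 5 of Ifit2 each. In NK cells Ifit1 had 27 UMIs in 109 iKO cells and 2 in 82 control cells, and Ifit3 had 43 and 2. The Ifit1 UMIs were 15, 11, 0 and 1 in iKO samples 1 to 4, which had 33, 55, 8 and 13 NK cells. In pDC, cells that can produce large amounts of interferon, Ifit1 had 10 UMIs in 67 iKO cells and 0 in 39 control cells. Its pooled level of 11.9 CPM in iKO was below that of every other type. Ifit2 in pDC had 10 UMIs in iKO and 4 in control cells, with close pooled levels of 11.9 and 9.79 CPM.

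Summed over the 8 tested types, 18 of all 32 combinations of member and type were called higher in iKO and none lower. Over all genes 2.15% of 53783 combinations of gene and type were called higher, and 812 were called lower against 1154 higher. In 10 of the 18 calls every control sample reached the level the filter asks for, and 6 of the 32 combinations were not tested. In the other 8 calls at least 1 control sample did not reach it. Ifit2 in neutrophils had 3 control samples at that level, each CD4 T call 2 and each mature DC call 1. Ifit3 in Treg cells and in B cells had 0. The calls in CD4 T, mature DC, Treg and B cells are descriptions, as given above. The size of the genotype difference was compared between types by taking, within each sample, the difference in log2(CPM + 10) between monocytes and macrophages and each other type. None of 28 comparisons passed an exact two-sided permutation test over samples (adjusted p 0.743 to 1; 0 had an unadjusted p below 0.05, and the smallest p the design allows is 0.0286). The largest separation was that of Ifit2 from CD8 T cells, with an effect of 2.23 in monocytes and macrophages and 1.04 in CD8 T cells (exact permutation p 0.257). A difference between types of this size was not detectable over these samples. At the smallest p of 0.0286, no single comparison could pass the adjustment unless most of the others reached that p too.

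The members did not keep 1 ratio to each other between monocytes and macrophages and neutrophils, while in CD8 T cells only the ratio of Ifit2 to Ifit3 stood apart in every sample. Because capture differs from gene to gene, a ratio of UMIs is compared only between types. Ifit2 had 1.01 UMIs per Ifit3 UMI in monocytes and macrophages over all samples, 0.343 in neutrophils and 0.512 in CD8 T cells. The ratio was below that of monocytes and macrophages in 8 of 8 samples in neutrophils and in 8 of 8 in CD8 T cells, by 1.60 ± 0.57 (SD) and 0.73 ± 0.37 on the log2 scale. Ifit3b, by contrast, had 0.186 UMIs per Ifit3 UMI in monocytes and macrophages and 0.407 in neutrophils, where it was higher in 8 of 8 samples by 1.57 ± 0.60 on the log2 scale. This was not particular to neutrophils. The Ifit3b ratio was also higher in 8 of 8 samples in CD4 T cells (by 0.80 ± 0.55), 7 of 7 in cDC2 (0.78 ± 0.23) and 6 of 7 in Treg cells (1.45 ± 1.20). Control counts were low in these types. Ifit1 had 0.662 UMIs per Ifit3 UMI in monocytes and macrophages, 1.02 in neutrophils, where it was higher in 8 of 8 samples, and 0.272 in B cells, where it was lower in 7 of 8. In CD8 T cells the ratio of Ifit1 to Ifit3 differed from that of monocytes and macrophages by -0.13 ± 0.51 on the log2 scale (higher in 3 and lower in 5 of 8 samples), and that of Ifit3b to Ifit3 by 0.07 ± 0.53 (higher in 5 and lower in 3), both within the spread over samples.

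**Figure D3:**
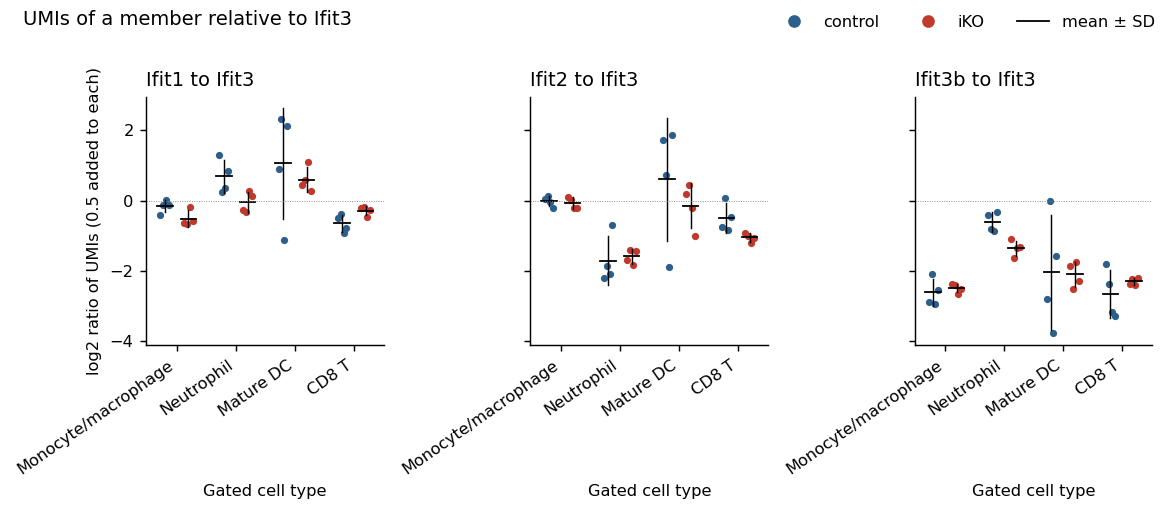
log2 ratio of the UMIs of Ifit1, Ifit2 and Ifit3b to those of Ifit3, with 0.5 added to each count, in 4 gated types. Points are samples (blue control, red iKO) and black bars are mean ± SD. Of the 4 types shown, the Ifit2 ratio is lowest in neutrophils and the Ifit3b ratio is highest there, in both genotypes.

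Between the genotypes, no ratio passed the exact two-sided permutation test after adjustment over 27 comparisons of ratio and type, all cells included. The smallest adjusted p was 0.171, and 4 had an unadjusted p of 0.0286, the smallest the design allows. No single ratio could pass the adjustment unless most of the others reached that p too, so the test cannot decide on 1 ratio. In CD8 T cells the log2 ratio of Ifit2 to Ifit3 was -1.05 ± 0.13 (SD, n = 4) in iKO and -0.49 ± 0.42 (n = 4) in control samples (exact permutation p 0.0286, adjusted 0.171). In neutrophils the log2 ratio of Ifit3b to Ifit3 was -1.35 ± 0.22 in iKO and -0.60 ± 0.28 in control samples (n = 4 each, exact permutation p 0.0286, adjusted 0.171).

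The share of cells with a member's UMI was compared at equal depth, as the expected share if each cell were thinned to 2000 UMIs. Shallower cells were left out, 39 of 1045 control and 9 of 350 iKO neutrophils and 15 of 2657 control and 14 of 5048 iKO monocytes and macrophages. In neutrophils Ifit3 was found in 41.2% ± 9.37 (SD, n = 4) of iKO cells and 6.24% ± 4.44 (n = 4) of control cells, and unthinned in 57.0 and 9.15%. In monocytes and macrophages the shares were 26.9% ± 12.4 and 4.54% ± 1.75, and unthinned 58.9 and 12.8%. In CD8 T cells they were 11.9% ± 1.56 and 3.73% ± 1.47, and unthinned 30.7 and 8.62%. Of 32 combinations of member and type, 21 passed the exact two-sided permutation test after adjustment (adjusted p 0.0435 for each, unadjusted 0.0286), all with more positive cells in iKO. The same test at an unadjusted p below 0.05, on each gene with a mean of at least 10 CPM in a type, gave more positive cells in iKO for 5.61% of 56245 combinations of gene and type and fewer for 2076 of them. By type the share with more was 20.1% in monocytes and macrophages, 3.43% in neutrophils and 5.57% in CD8 T cells. None of the 32 passed when any 1 of the 4 control samples was left out. That loss does not measure overlap of the genotypes. With 4 iKO against 3 control samples, a relabelling that sets the 3 highest iKO samples apart can give as large a difference. Fully separated groups can then miss the smallest p. Ifit1 in Treg cells did so, at 10.1 to 20.3% in iKO and 2.12 to 6.06% in control samples (exact permutation p 0.0571). All 4 members passed in monocytes and macrophages, neutrophils and CD8 T cells. In cDC2 Ifit3 alone passed, at 10.2 to 29.6% in iKO samples (n = 3) and 0.140 to 9.04% in control samples (n = 4). No type in the sort is known to lack Ifit transcripts, so no background share could be set. The lowest tested iKO share was that of Ifit3b in mature DC, at 2.85% ± 1.98, followed by Ifit1 in B cells at 2.99% ± 1.12, which did not pass (n = 4 each, exact permutation p 0.0857, adjusted 0.0980), while Ifit3 in the same B cells was at 13.2% ± 5.39.

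**Figure D4:**
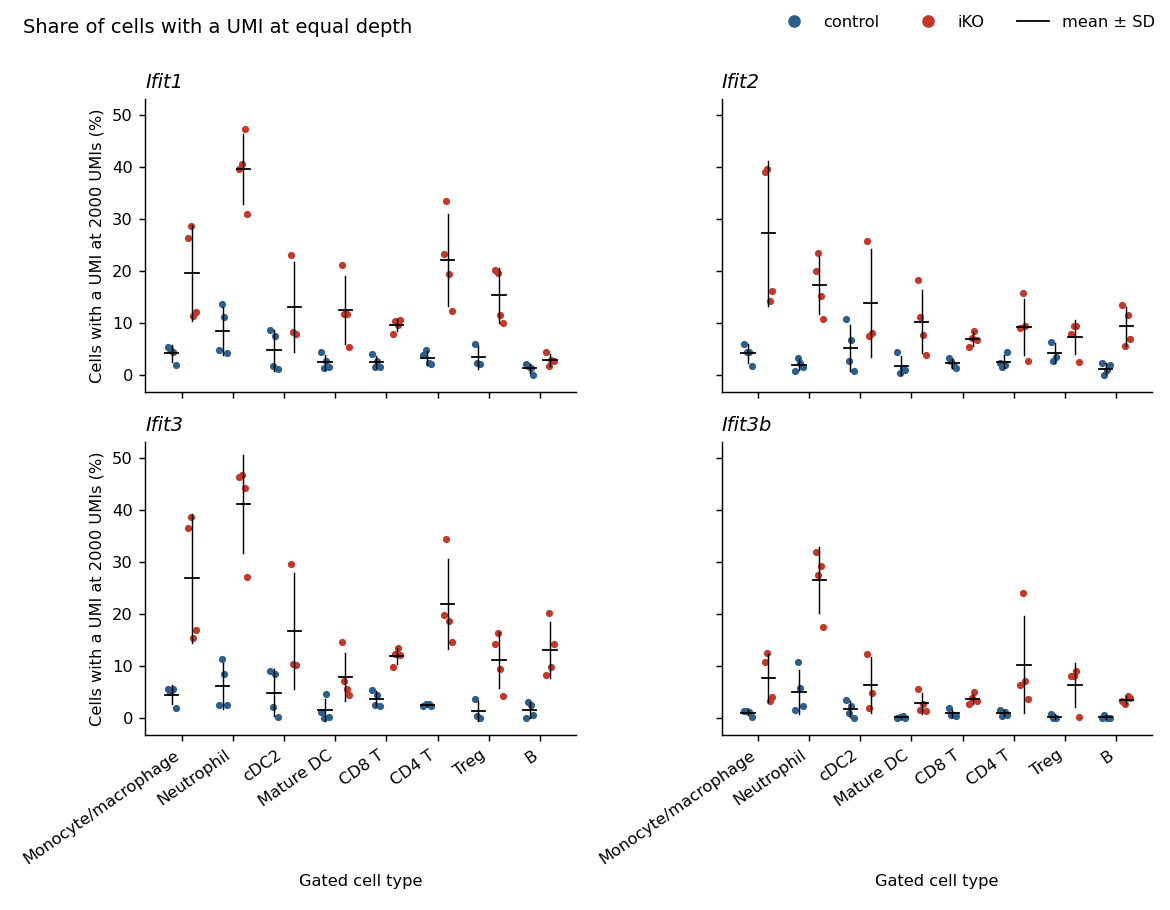
Expected share of cells with at least 1 UMI of each member after thinning to 2000 UMIs, in percent, for 8 gated types with at least 20 deep enough cells in a sample. Points are samples (blue control, red iKO) and black bars are mean ± SD. Control shares stay low in all types, while iKO neutrophils reach 41.2% on average for Ifit3.

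Within a type the UMIs were concentrated in some cells, more so in the controls. In monocytes and macrophages 14.4, 13.7, 34.6 and 33.9% of iKO cells had no UMI of any member, against 71.3, 75.5, 78.4 and 85.3% of control cells. The tenth of cells with the most Ifit UMIs held 54.6 to 70.4% of them in iKO and 91.8 to 94.6% in control samples. That share rises when few cells have any UMI, so it is not separate from the lower level of the controls. Control sample 4 had 831 member UMIs in 1203 cells, and iKO sample 1 had 30961 in 1574. Single control cells reached 85 to 212 Ifit UMIs, against 237 to 357 in iKO. Cells with all 4 members made up 26.4, 29.6, 8.04 and 9.90% of iKO and 0.67 to 3.38% of control monocytes and macrophages. These shares are unthinned, and median depth in this gate was 15520 UMIs in iKO and 14433 in control cells.

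In most pairs examined, a second member was more often found in cells with an Ifit3 UMI, by ranges over samples that did not overlap. Among monocytes and macrophages of the iKO samples, Ifit1 was found in 56.2 to 75.1% of cells with an Ifit3 UMI and in 19.6 to 27.4% of those without. In the control samples the shares were 36.0 to 58.3% and 3.74 to 8.37%. In iKO neutrophils Ifit3b was found in 63.9 to 80.5% of Ifit3-positive and 4.08 to 20.0% of Ifit3-negative cells. In iKO CD8 T cells Ifit1 was found in 40.9 to 52.6% and 16.2 to 16.4%. In each of these comparisons the ranges of positive and negative cells did not overlap. They did in control CD8 T cells for Ifit2, which was found in 12.5 to 31.2% of Ifit3-positive and 6.15 to 15.2% of Ifit3-negative cells. Within each of these control samples the share was higher in the Ifit3-positive cells, of which there were 8 to 46 per sample. Cells with an Ifit3 UMI can also be deeper cells, and depth was not matched here.

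The upstream and downstream genes of the pathway were compared from a list of 22. Of the 21 tested in monocytes and macrophages, 7 rose and none fell, and in neutrophils 5 of 17 rose and none fell. CD8 T cells had 5 of 20 higher, CD4 T cells 3 of 18, B cells 2 of 12, Treg cells 2 of 19, mature DC 2 of 18 and cDC2 1 of 19, and no listed gene was lower in any type. Over all genes and both directions, 10.2% were called in monocytes and macrophages, 2.49% in neutrophils, 2.74% in CD8 T and 2.68% in CD4 T cells. The share was 3.52% in B cells, 1.07% in Treg cells, 0.547% in mature DC and 0.362% in cDC2. The median log2 fold change of the list was 0.50 in monocytes and macrophages and 0.20 in CD8 T cells, against -0.0026 and -0.02 over all genes. It was 0.54 in neutrophils, 0.40 in Treg cells, 0.34 in mature DC and 0.21 in CD4 T cells. In B cells and cDC2 it was negative, at -0.121 and -0.124, against -0.0068 and -0.016 over all genes. Calls were most frequent downstream. Irf7 rose in 7 of 8 types, by 2.24 to 3.14 on the log2 scale, and Isg15 in 6 of 8 types, by 1.76 to 3.23. Usp18, which removes ISG15 and dampens receptor signalling, rose in 6 of 7 types, by 2.16 to 3.54. Some of these calls entered the test through the iKO samples and are a description. Usp18 in CD4 T cells, the highest of its range, had 10, 3, 5 and 1 UMIs in the controls, all below the level the filter asks for. Irf7 in B cells had 2, 7, 58 and 2 UMIs in the controls, also all below it. In Treg cells Usp18 had 7, 2 and 6 UMIs in control samples 1 to 3, of which control sample 1 alone reached it. Irf7 was the one listed gene called in cDC2, at 3.14 ± 0.43 (edgeR adjusted p 0.00497). Of the transcription factors that act below the receptor, Stat2 rose in 3 of 7 types and Irf9 in 2 of 8. None of the 4 receptor genes (Ifnar1, Ifnar2, Ifngr1 and Ifngr2) or the 3 kinase genes was called in any type, nor were Sting1, Tbk1, Irf3, Socs1 and Socs3. Cgas, the DNA sensor, rose in 1 of 4 types, monocytes and macrophages, by 1.09 ± 0.16 (edgeR adjusted p 0.00759). Ifng also rose in that gate, by 1.67 ± 0.23 (edgeR adjusted p 0.00552). Ifng is a T and NK cell product, and the CD8 markers in that gate were 18.7 to 24.5 CPM in iKO and 5.45 to 8.77 CPM in control samples; the part of such transcripts in the difference was not tested.

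The 2 type I interferon genes on the list had few counts. Ifnb1 had 273 UMIs and Ifna4 11 in all kept cells, against 61668 UMIs of Ifng, the type II interferon. In monocytes and macrophages Ifnb1 had 35, 10, 1 and 30 UMIs in iKO samples 1 to 4 against 4, 21, 55 and 0 in the controls, so the genotypes overlapped (log2 difference -1.52 ± 1.11, edgeR adjusted p 0.398). A further 29 UMIs came from mature DC of iKO sample 3. These 2 types did not hold all Ifnb1 UMIs: over all kept cells iKO sample 2 had 63 and control sample 3 had 83.

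A pair of relatives next to the family on chromosome 19 were followed beside it. Ifit1bl1 rose in 5 of the 6 types where it was tested, by 1.63 to 3.25 on the log2 scale. The highest of these, in Treg cells, came from a fitted control mean of 5.52 CPM, below the 14.5 CPM that the filter asks for. Ifit1bl1 was 25.4 to 76.7 CPM in iKO and 2.97 to 17.4 CPM in control monocytes and macrophages. Ifit1bl2 was found mainly in neutrophils, at 105 ± 33.1 CPM (SD, n = 4) in iKO and 41.2 ± 12.3 CPM (n = 4) in controls, and rose there by 1.58 ± 0.28 on the log2 scale (edgeR adjusted p 0.00776). In every other type its mean was 3.46 CPM or less in either genotype.

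The genes whose pattern was most like each member were listed by Pearson's r of log2(CPM + 10) over 62 profiles of sample and type. The profiles share samples and libraries, so r is given as a description. Ifit1 was most like Isg15 (0.89), Rtp4, Ddx60, Usp18 and Rsad2. Ifit3 was most like Usp18 (0.89), Oas3, Irf7, Cmpk2 and Trim30a, and Ifit3b was most like Ddx60 (0.89), Rtp4, Trim30a, Cmpk2 and Oas3. Ifit2 was most like Irf7 (0.85), Dhx58, Xaf1, Rsad2 and Cxcl10. Between members r ran from 0.81 for Ifit2 with Ifit3b to 0.93 for Ifit3 with Ifit3b. Over the control profiles alone Ifit1 was most like Rtp4 (0.87), Rsad2, Oas3, Trim30a and Irf7, and Ifit3 like Rsad2 (0.84), Cxcl10, Oas3, Rnf34 and Rtp4. Ifit2 was then most like Cxcl10 (0.87), Rnf213, Dock4, Xaf1 and Oas1a, and its r with Ifit3b was 0.54. Ifit3b was then most like Rtp4 (0.84), Ddx60, Slc31a2, Ptgs2os2 and Ccdc126.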

How the data were processed

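The deposited values are UMI counts per gene and cell barcode, 1 matrix per hashtagged sample. Per the file headers they come from Cell Ranger 7.1.0, and the submitters' processing notes name build GRCm39. How introns were counted and how hashtags were called is not given in the sources used here. Members and gene lists were chosen with earlier results of these data known. Cells with at least 300 genes and at most 10% mitochondrial counts were kept, which removed 1241 of 23731 barcodes. Scrublet, in scanpy 1.11.5, scored doublets per sample (expected rate 0.06), and 438 cells with a score above 0.25 were removed. The pools shared 45 barcodes, and matrices of 1 pool shared none. Types were gated on marker genes as the report describes.

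Counts were summed per sample and type for samples with at least 20 cells, and types with at least 3 such samples per genotype were tested. edgeR 4.0.16 (TMM, filterByExpr, quasi-likelihood test, Benjamini-Hochberg adjustment over all genes of a type, threshold 0.05) in R 4.3.3 gave the main fit, without a block. DESeq2 1.42.0 was an alternative. On simulated data with 200 genes changed 4-fold, the edgeR step recovered 94.5% of them in monocytes and macrophages (11483 genes) and 93% in CD8 T cells (9178 genes). Of the genes called, 5.97 and 2.62% had not been changed, and 6.06% in neutrophils. Each gene was simulated independently, so a shift shared by many genes of a sample was not part of it. Plain CPM is used for levels. Shares, ratios and effect differences were tested by exact two-sided permutation over samples, adjusted over each family. The share test was also run on each gene with a mean of at least 10 CPM in a type, as a background.

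Sample numbers are shared between the genotypes. Deviations from the group means of same-numbered samples correlated at 0.56, 0.28, 0.12 and 0.60 for numbers 1 to 4. The numbers were treated as pairing the samples in the block alternative only. iKO sample 2 correlated more with control sample 1 (0.64) than with its own number, and iKO sample 3 more with control sample 4 (0.44). The pairing comes from this check, not from the labels.

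Named genes follow fixed rules: all members, pathway genes called in the most types, and the 5 genes of most similar pattern per member. A gene of the pathway list is not reported here. Alternatives were DESeq2, no filter on low counts, each sample left out, the block, no doublet removal, a strict gate and, chosen after seeing the data, a macrophage gate at 5 markers. Thinning to 1000 or 4000 UMIs, no thinning, pseudocounts of 1 and 50 CPM, and 1 added to counts were also run. Promoter sequences are from RefSeq (GRCm38.p6); all 4 members matched by symbol. Transcripts are from GENCODE.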

Additional observations from a re-analysis of the deposited data

Results flagged for a closer look

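In 5 of 64 groups of 4 samples, 1 sample lay apart from the other 3 by more than Dixon's 95% critical value, where chance gives about 1 in 20. In CD8 T cells, Ifit1 in iKO sample 1 was at 42.2 CPM, below the 61.7 to 65.7 CPM of the other iKO samples. In CD4 T cells iKO sample 2 was high for 2 members: Ifit3 was at 459 CPM against 114 to 155 CPM, and Ifit3b at 161 CPM against 20.6 to 34.9 CPM. In mature DC, Ifit2 in control sample 1 was at 30.4 CPM against 2.76 to 6.92 CPM. In Treg cells, Ifit3b in iKO sample 4 was at 1.76 CPM, from 1 UMI, against 46.0 to 48.9 CPM.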

How the results depend on the processing

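No alternative changed the sign of a member's log2 fold change in any of 390 comparisons with the main fit; 297 stayed on the same side of the threshold, 68 lost a call and 25 gained one. Leaving out 1 sample gave 60 of the losses, and the number of members called over all kept cells then ran from 0 to 4, against 4, and over types from 10 to 23, against 18. DESeq2 gave 18 calls over types. Without the filter on low counts 31 member and type combinations were called; more genes of few counts then enter the fit. The strict gate gave 15 calls and the macrophage gate at 5 markers 18, each over fewer profiles. The numbers called for shares of cells ran from 0 to 23 when 1 sample was left out, against 21. They fell to 0 without any of the 4 control samples, where the two-sided test can miss separated groups, as described for 4 against 3 samples. Thinning to 1000 or 4000 UMIs or not thinning gave 20, 23 and 24. No ratio and no effect difference passed under any alternative, and with so few samples none could pass the adjustment by itself.

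With sample number as a replicate block 4 members were called over all kept cells and 22 combinations over types; the 4 gained are given in the report, and the block changed no other call of a member. Over all genes the block moved the calls from 340 to 708 in all kept cells, from 137 to 218 in neutrophils, from 32 to 136 in mature DC and from 260 to 943 in CD8 T cells, and the share of higher calls in Treg cells from 36 of 73 to 47 of 64. DESeq2 called 1381 genes in all kept cells, 1843 against 1191 in monocytes and macrophages, 44 against 22 in cDC2, 88 in mature DC and 468 in CD8 T cells. Without the filter, 371 genes were called in neutrophils, 210 in cDC2, 346 in mature DC, 282 against 143 in CD4 T cells and 314 against 73 in Treg cells. The strict gate gave 761 in monocytes and macrophages, 160 in CD8 T cells and 149 in Treg cells. Low counts limit the levels in B, Treg and dendritic cells.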
